A study of Mus musculus with 8 samples.

Results

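The genes described here belong to the tumour necrosis factor (TNF) superfamily and to the nuclear factor kappa B (NF-κB) pathway that its receptors engage. They were taken from the gene table by name: every protein-coding row with 8 counts whose symbol began with Tnf, Nfkb, Ikbk, Ripk or Tnip, or named a TRAF, REL, TAB or BIRC family gene, TANK or the IκB kinase gene Chuk. This gave 36 genes of 35880 usable rows, 12286 of which were protein-coding. Another 44 genes with such names, among them Tnf, Tnfrsf1a, Rela, Nfkbia, Birc3, Ripk3 and the IκB kinase genes Chuk, Ikbkb and Ikbkg, stood in rows whose values could not be assigned to libraries and were not analysed here. The 36 members comprised 8 ligands, 9 receptors, 4 adaptors, 2 kinases, 3 NF-κB subunits, 3 inhibitors of NF-κB signalling, 3 TNF-induced proteins, 3 BIRC family members and Ikbkap.

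TNF superfamily ligands are made on the cell surface or shed from it and bind trimeric receptors, whose cytoplasmic tails recruit TRAF adaptors, RIP kinases and BIRC ubiquitin ligases. These complexes release NF-κB dimers from their inhibitors in the canonical route, or cause the processing of the Nfkb2 precursor to the partner of RelB in the non-canonical route. NF-κB then switches on cytokine and chemokine genes and also its own inhibitors, and in the kidney TNF signalling is known as a mediator of the inflammation that follows cisplatin injury.

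Kidneys were from wild-type mice, 4 given saline (control) and 4 given a single intraperitoneal injection of cisplatin, a platinum drug that damages the proximal tubule. All kidneys were taken 72 h after injection. The study's methods describe male C57/BL6J animals and a single drug exposure, so the data hold no other time point. The libraries carried the numbers 1, 2, 3 and 5 in the control group and 1, 3, 4 and 6 in the cisplatin group, and are named by them. Total counts over the usable rows ranged from 10953338 to 16701599 per library. In the tissue check, the kidney tubule markers summed to between 25580 and 35480 CPM (counts scaled to the TMM-normalized size of the library) in the controls and to between 2227 and 5806 CPM after cisplatin. Of the 12 measured tubule markers 9 fell and 1, the collecting duct marker Aqp2, rose.

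Some differences between libraries do not follow the groups. The second principal component, which held 15.96% of the variance against 73.6% for the first, set control 5, cisplatin 4 and cisplatin 6 apart from the other 5 libraries. The former are called the second library set below and the others the first, and the labels name no batch. Cisplatin 1 and 3 had at most 3 counts of the Y-linked genes Kdm5d and Eif2s3y, although the methods describe male mice. The other 6 libraries had at least 274 and 541 counts of them. Cisplatin 1 and 3 are the only cisplatin libraries of the first set. A fit of that set alone therefore cannot tell the drug from the difference in Y-linked counts. With the 4 controls set against cisplatin 4 and 6 only, 15 members were called higher and 4 lower, where 21.4% and 20.5% of all genes in that fit were, and no called member lost its call. The study describes 4 mice per group, so libraries were taken as separate animals, although the labels do not number the animals. In whole-kidney RNA, fewer cells of a type and less RNA per cell cannot be told apart.

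Cisplatin-treated kidneys had higher transcript levels of the NF-κB subunits Relb and Nfkb2, the inhibitors Tnfaip3 and Nfkbid and 5 TNF receptors, and the largest changes were in the receptor genes Tnfrsf23 and Tnfrsf12a. Of the 36 members, 32 had enough counts to be tested by edgeR's quasi-likelihood test. A gene was called where its Benjamini-Hochberg adjusted p was under 0.05 and its log2 fold change was 1 or more in size. Called higher after cisplatin were 14 members, or 43.8% of those tested, where 19.2% of all 9141 genes tested were called higher. Only Birc6 was called lower, where 15.7% of all genes tested were. A further 5 members passed the adjusted p with a smaller fold change, and 12 did not pass it. All 4 cisplatin libraries lay above all 4 controls for 16 of the tested members, against 23.7% of all genes tested, and below them for 1 member, against 22.5%. The median log2 fold change was 0.75 over the members tested and 0.08 over all genes tested. Scaling by total library size alone moved the median of all genes to 0.64 and the share of higher among all calls from 55.0% to 79.8%, and gave 19 members higher and 0 lower, where 34.7% and 8.78% of all genes were. The plot of CPM by library and the plot of fold changes show all tested members by role.

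**Figure D1:**
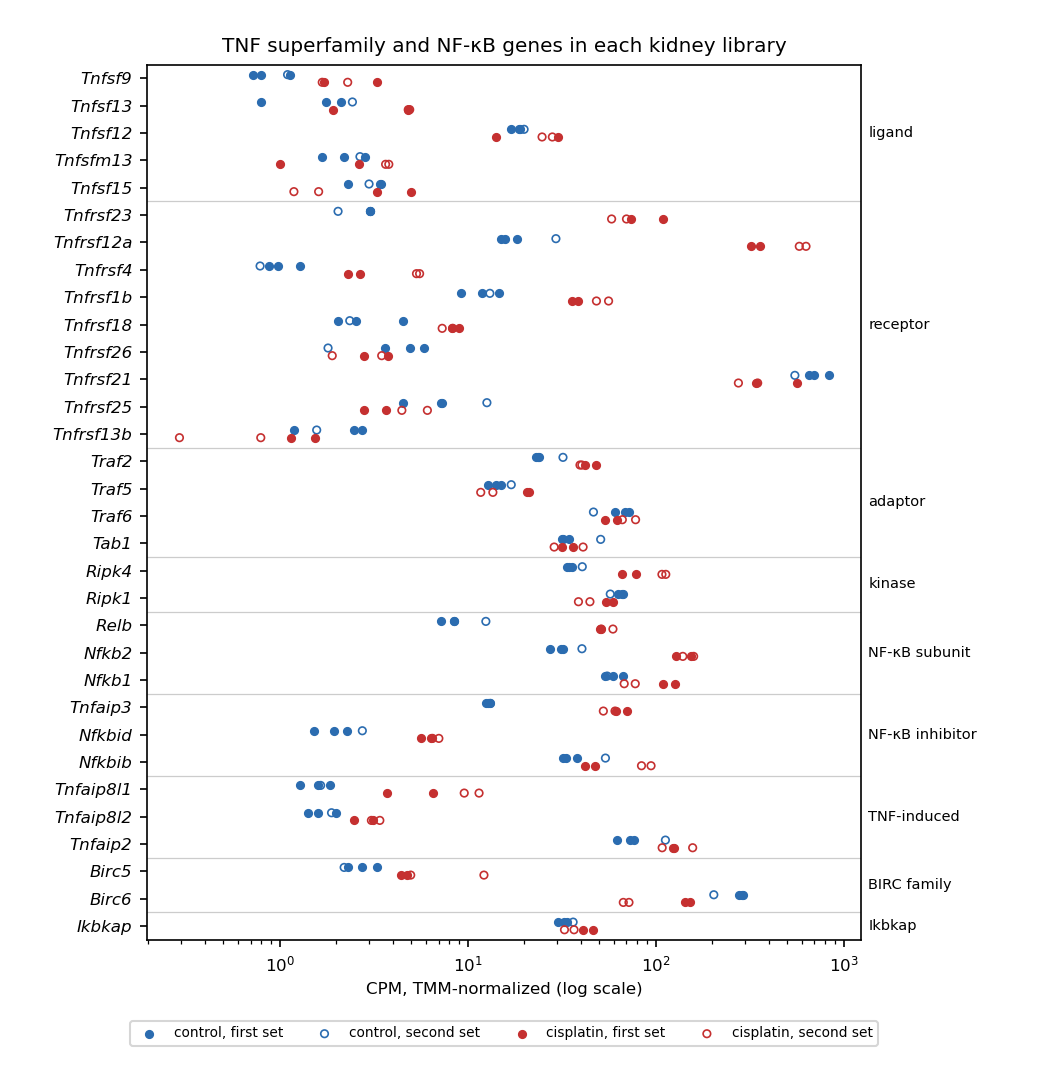
CPM (TMM-normalized, log scale) of the 32 tested members in each of the 8 kidney libraries, grouped by role; blue points are controls, red points cisplatin libraries, filled points the first library set and open points the second. Tnfrsf12a and Tnfrsf23 show the widest gaps between the groups, the 3 NF-κB subunits do not overlap, and the adaptors Traf5, Traf6 and Tab1 overlap.

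**Figure D2:**
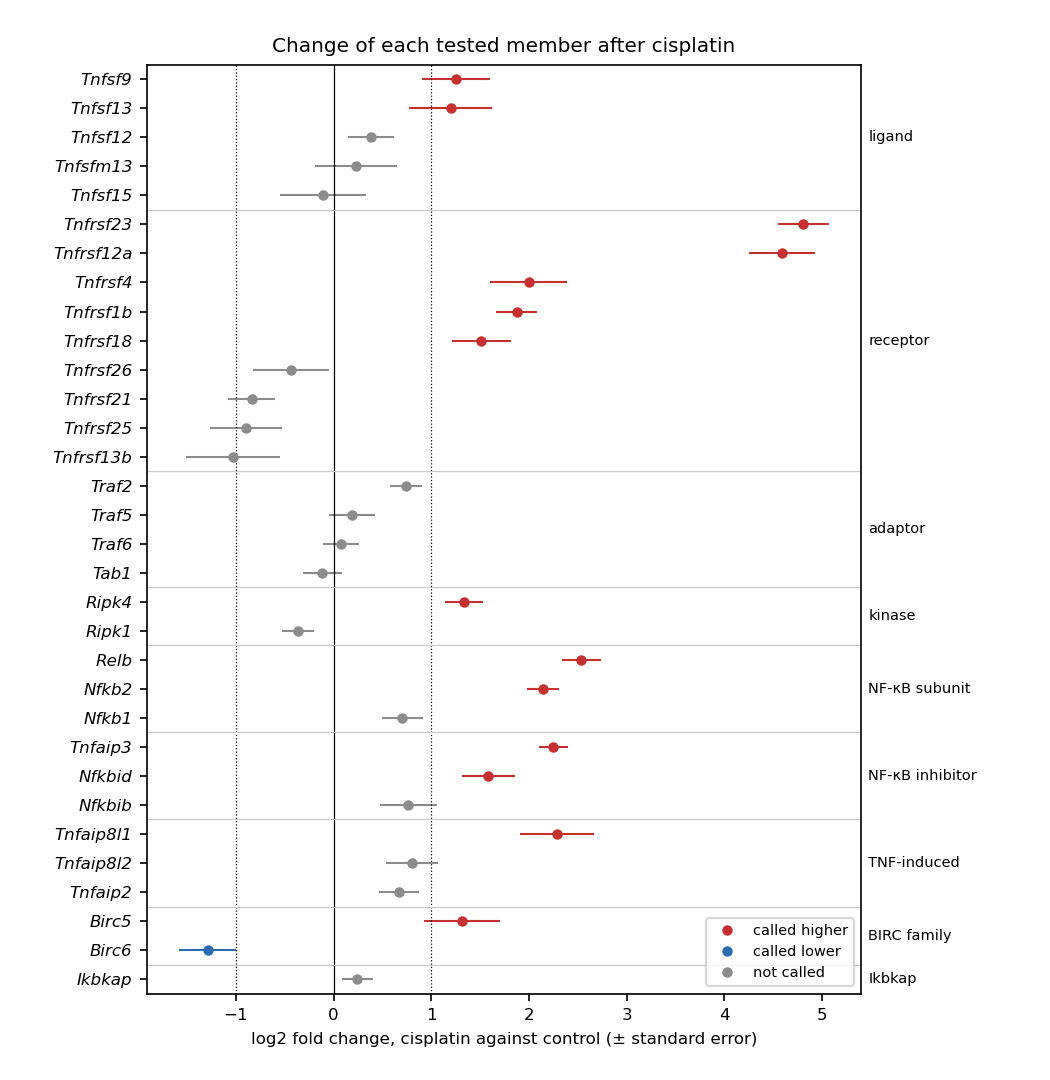
Log2 fold change, cisplatin against control, of the 32 tested members with its standard error (edgeR), grouped by role; dotted lines mark a log2 fold change of 1 in either direction. The 14 members called higher are red, Birc6 is blue and the 17 members not called are grey.

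Promoter sequence was examined next, because several members are known as transcriptional targets of NF-κB itself. RefSeq promoters on GRCm38.p6, reaching from 250 bases before each start to 50 after it, were available for 27 of the 36 members, and both strands were searched for the kappa B consensus. A match lay in 7 of the 34 promoters of these genes, which belonged to 5 members: Nfkb2, Tnfaip3, Nfkbid, Birc5 and Tnfaip8l1. Over all 32851 promoters of this length 4.51% held a match, and over all genes 5.14% did at any of their starts. All 5 members were among the 11 called higher that had a promoter sequence, and 0 of the 13 tested members not called higher held a match. Over all tested genes, a match was found in 7.05% of those called higher and 6.14% of the others. A match is a description of the letters and not a measured binding site. A 30-base stretch is printed for each of the 5 genes to show where the matching letters lie, 5′ to 3′ on the gene's strand, with the match in capitals.
Nfkb2: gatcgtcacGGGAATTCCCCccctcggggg
Tnfaip3: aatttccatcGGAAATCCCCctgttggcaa
Nfkbid: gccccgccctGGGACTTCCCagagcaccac
Birc5: ggcgtggggcGGGACTTTCCcggctcgcct
Tnfaip8l1: ctattccggaGGAATCTCCCggccgcagac
The Nfkb2 stretch lies at chr19:46304689-46304718 on the plus strand, its matching letters begin 39 bases before the start, and they hold 3 overlapping matches on both strands. The Tnfaip3 stretch lies at chr10:19015403-19015432 on the minus strand, begins its match 12 bases before a RefSeq start and matches on the opposite strand. That start lies 247 bases inside the gene as the count table draws it. In Nfkbid the stretch lies at chr7:30422170-30422199, and in Birc5 at chr11:117849183-117849212, each on the plus strand with the match on the gene's strand, 226 and 44 bases before a RefSeq start. The Nfkbid start is 674 bases inside the gene as the table draws it, and the other 2 RefSeq promoters of Nfkbid, among them the one nearest the gene's own start, held 0 matches. In Tnfaip8l1 it lies at chr17:56162333-56162362 on the plus strand, with the match on the opposite strand and 148 bases before the start.

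Among the ligands, Tnfsf9 and Tnfsf13 rose and no ligand fell. Of the 8 ligand genes, 5 were tested. Tnfsf9 (chr17:57105385-57107757), the ligand of the costimulatory receptor CD137, was at 0.797, 0.718, 1.14 and 1.10 CPM in controls 1, 2, 3 and 5. It was at 1.73, 3.30, 1.68 and 2.30 CPM in cisplatin 1, 3, 4 and 6. Every cisplatin library lay above every control, and the log2 fold change was 1.25 ± 0.35 (SE, n = 4 per group, adjusted p = 0.0135). Without cisplatin 3 it was 0.99 and the gene was not called.

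Tnfsf13 (chr11:69682846-69685784) encodes APRIL, a survival factor for plasma cells. Its controls were at 0.797, 1.76, 2.12 and 2.44 CPM and its cisplatin libraries at 1.91, 4.84, 4.83 and 4.92 CPM, so that cisplatin 1 lay within the control range while the other cisplatin libraries lay above it. The log2 fold change was 1.20 ± 0.42 (SE, adjusted p = 0.0396). The call was lost when control 1, 2 or 3 or cisplatin 3, 4 or 6 was left out, with adjusted p values of 0.0658 to 0.0941, and in the first library set (adjusted p = 0.116). Tnfsf13 shares its position and strand with Tnfsfm13, the readthrough transcript that joins it to Tnfsf12, and reads of the 3 genes may have been divided between them.

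Tnfsf12 (chr11:69686250-69695849) encodes TWEAK, the ligand of the receptor that Tnfrsf12a encodes, and per length it was the most abundant ligand in both groups, at 12.3 ± 0.798 CPM per kb in controls and 16.1 ± 4.72 after cisplatin (SD, n = 4). The controls were at 19.0, 17.1, 18.7 and 20.0 CPM and the cisplatin libraries at 14.1, 30.1, 24.9 and 28.2 CPM. Cisplatin 1 lay below all controls and the other 3 above them, and the difference did not pass the test (log2 fold change 0.38 ± 0.23, SE, adjusted p = 0.207). Tnfsf15, the ligand of death receptor 3, and Tnfsfm13 had log2 fold changes of -0.11 and 0.23 with adjusted p values of 0.852 and 0.678. Tnfsf15 was at 4.15 CPM on average in cisplatin 1 and 3 and at 1.40 CPM in cisplatin 4 and 6, on either side of the control mean of 3.04 CPM.

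The ligand genes Tnfsf4, Tnfsf8 and Tnfsf11 did not pass the filter on low counts in the fit of all 8 libraries. Tnfsf4, the OX40 ligand, had 0 counts in every control and at most 1 in a cisplatin library, and Tnfsf11, the RANK ligand, had at most 1 count in any library. Tnfsf8, the CD30 ligand, had 3, 4, 10 and 2 counts in the controls and 37, 20, 2 and 22 in the cisplatin libraries, cisplatin 4 being as low as the lowest control. A fit with no filter gave it a log2 fold change of 1.63 (adjusted p = 0.0852). It passed the filter and was called higher in the first library set alone, at 1.55 (adjusted p = 0.0307), and without cisplatin 4, at 1.96 (adjusted p = 0.0139), but not on leaving out any of the controls (adjusted p = 0.0525 to 0.170).

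The receptors held the largest changes. All 9 receptor genes were tested, 5 rose and 0 were called lower. Tnfrsf23 (chr7:143665809-143685872) encodes a decoy receptor that binds the ligand TRAIL without a death domain. It was at 3.01, 3.03, 3.03 and 2.04 CPM in the controls and at 74.3, 109.0, 58.4 and 70.0 CPM after cisplatin. The groups were far apart, with a 28.0-fold ratio of the means and a log2 fold change of 4.81 ± 0.26 (SE, adjusted p = 1.97e-06). Tnfrsf23 lies in a cluster with the related genes Tnfrsf26 and Tnfrsf22 and overlaps an antisense gene, and whether shared reads entered its count was not tested. Tnfrsf26 averaged 4.06 CPM in controls and 2.99 CPM after cisplatin.

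Tnfrsf12a (chr17:23675447-23677449) encodes Fn14, the TWEAK receptor, an inducible receptor of injured epithelium that signals through TRAF adaptors to both NF-κB routes. The controls were at 15.8, 15, 18.4 and 29.5 CPM. The cisplatin libraries were at 322.7, 358.7, 581.7 and 631.5 CPM. Control 5 was the highest control, cisplatin 4 and 6 were the highest of all, and these are the 3 libraries of the second set. Tnfrsf12a rose by a log2 fold change of 4.59 ± 0.33 (SE, adjusted p = 8.06e-06), which was 4.32 in the first library set alone and 4.96 against cisplatin 4 and 6.

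Tnfrsf4 (chr4:156013843-156016612) and Tnfrsf18 (chr4:156026164-156028895) are neighbouring genes for the T cell costimulatory receptors OX40 and GITR. Tnfrsf4 was at 0.974, 0.878, 1.29 and 0.786 CPM in the controls and at 2.68, 2.31, 5.34 and 5.55 CPM after cisplatin, without overlap and with cisplatin 4 and 6 the highest. It rose by a log2 fold change of 1.997 ± 0.39 (SE, adjusted p = 0.00232). For Tnfrsf18 the controls were at 2.04, 2.55, 4.55 and 2.36 CPM and the cisplatin libraries at 8.28, 8.96, 7.32 and 8.33 CPM, again without overlap. Its log2 fold change was 1.51 ± 0.30 (SE, adjusted p = 0.00257).

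Tnfrsf1b (chr4:145213463-145246870) encodes TNF receptor 2, the receptor that prefers membrane-bound TNF and lacks a death domain. It was at 11.9, 14.6, 9.25 and 13.1 CPM in the controls and at 38.5, 35.7, 48.5 and 56.2 CPM after cisplatin. All cisplatin libraries lay above all controls (log2 fold change 1.87 ± 0.21, SE, adjusted p = 0.000106). Over the same libraries, T and NK cell markers summed to 9.44 to 17.5 CPM in controls and to 1.83 to 5.55 CPM after cisplatin, with 2 of the 4 tested markers lower and 0 higher. Pan-leukocyte markers summed to 95.2 to 114 CPM and to 43.1 to 98.3 CPM, with 1 of 3 lower and 0 higher. Neutrophil markers summed to 4.07 to 6.21 CPM and to 14.1 to 27.5 CPM, with 4 of 5 higher. Of the macrophage and dendritic markers, 1 of 5 was higher and 1 lower, and their sum spanned 62.0 to 131 CPM and 42.7 to 123 CPM. Fibroblast markers summed to 32.8 to 141 CPM in controls and to 208 to 991 CPM after cisplatin, with 2 of 3 higher. Endothelial markers (198.5 to 379 and 119 to 283 CPM) and podocyte markers (342 to 691 and 375 to 588 CPM) had 0 of 3 and 0 of 2 called. The part of these cell types in the receptor values was not tested.

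Tnfrsf21 (chr17:43016555-43089188), the death receptor 6 gene, was the most abundant receptor per length in controls, at 188.6 ± 32.1 CPM per kb (SD, n = 4). It was at 694.7, 657.0, 832.4 and 551.0 CPM in controls and at 343.7, 562.4, 349.3 and 275.9 CPM after cisplatin. Cisplatin 3 exceeded control 5 and the other cisplatin libraries lay below all controls. The adjusted p was 0.0163, but the log2 fold change of -0.84 ± 0.24 (SE) was under the fold limit, and it was -1.10 without cisplatin 3. The other 3 receptors not called were these: Tnfrsf25, death receptor 3, at -0.90 (adjusted p = 0.0676), Tnfrsf26 at -0.43 (adjusted p = 0.383) and Tnfrsf13b, the TACI receptor for APRIL, at -1.03 (adjusted p = 0.101). Tnfrsf25 was called lower in the first library set alone, at -1.02 (adjusted p = 0.0214), and also without control 2 (-1.10) or cisplatin 6 (-1.12). For Tnfrsf13b, a B cell receptor, the B and plasma cell markers summed to 9.21 to 42.5 CPM in controls and to 5.66 to 31.2 CPM after cisplatin, with 1 of 3 higher and 0 lower, and their part in it was not tested.

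Summed per length, the 9 measured Tnfrsf genes stood at 220.9 ± 28.5 CPM per kb in controls and 640.2 ± 144.1 after cisplatin (SD, n = 4). Tnfrsf21 made up 85.1% ± 4.85 of that sum in controls and 17.5% ± 7.67 after cisplatin, and Tnfrsf12a 9.48% ± 4.13 and 75.6% ± 9.08 (SD). Per length, the most abundant of these transcripts was Tnfrsf21 in each of the 4 controls and Tnfrsf12a in each of the 4 cisplatin libraries. After cisplatin this ranking depends on the gene lengths in the table (963 bases for Tnfrsf12a, 3626 for Tnfrsf21). In CPM, Tnfrsf21 exceeded Tnfrsf12a in cisplatin 1 (343.7 against 322.7) and cisplatin 3 (562.4 against 358.7). Tnfrsf12a was the higher in cisplatin 4 (581.7 against 349.3) and cisplatin 6 (631.5 against 275.9). Tnfrsf23 stayed a small part, at 0.32% ± 0.05 in controls and 3.26% ± 1.35 after cisplatin. These shares cover the Tnfrsf genes with usable rows. They leave out Tnfrsf1a and the others in unassigned rows, and receptors of the family with other names, such as Eda2r and Fas. The plot of receptor make-up gives them by library.

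**Figure D3:**
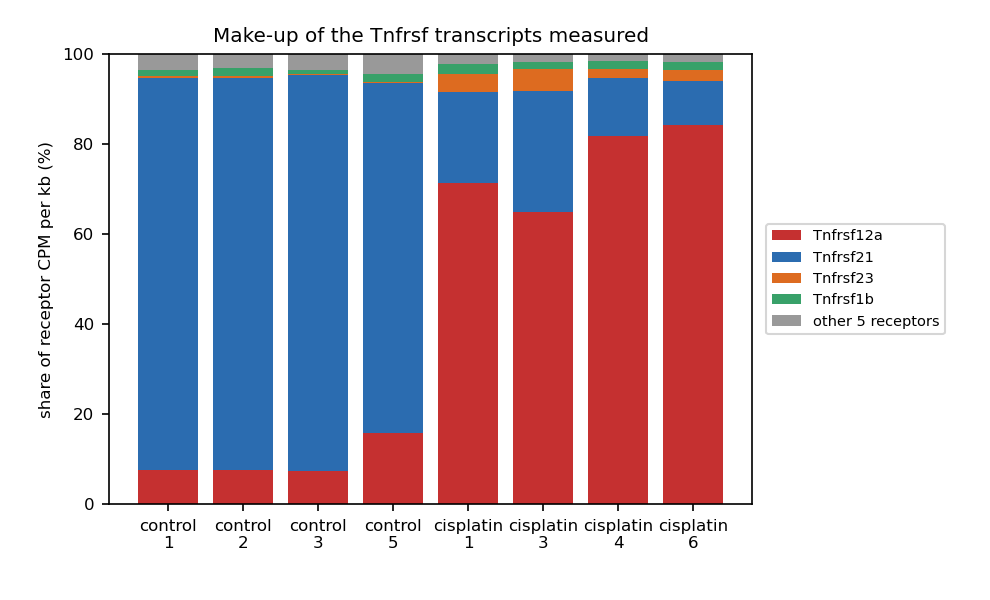
Share (%) of the summed CPM per kb of the 9 measured Tnfrsf genes that each gene took in each of the 8 libraries; colours are receptors, and the bars of a library add to 100%. Tnfrsf21 takes 77.8% to 87.9% of the sum in the controls, and Tnfrsf12a takes 64.8% to 84.3% after cisplatin.

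Ratios of receptor to ligand were compared within each library. Per length, Tnfrsf12a over Tnfsf12 was 1.30, 1.38, 1.55 and 2.32 in the controls and 36.0, 18.8, 36.8 and 35.2 after cisplatin, with no overlap. The ratio of Tnfrsf12a to Tnfrsf21 per length was between 0.0830 and 0.201 in controls and between 2.40 and 8.62 after cisplatin. In CPM, Tnfrsf12a was below Tnfrsf21 in cisplatin 1 and 3, as given above. For death receptor 3, Tnfrsf25 over Tnfsf15 spanned 2.89 to 6.23 in controls and 0.828 to 7.55 after cisplatin, and the groups overlapped. The ratio of Tnfrsf13b to Tnfsf13 overlapped as well, at 0.372 to 1.80 and 0.0350 to 0.467.

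Of the 4 genes for adaptors that carry the signal from the receptor tails, 0 were called. Traf2 (chr2:25517982-25546940), the TRAF that binds TNF receptors and holds the BIRC ubiquitin ligases, was at 23.0, 23.9, 23.6 and 32.2 CPM in controls and at 48.5, 42.3, 39.6 and 40.5 CPM after cisplatin. All cisplatin libraries were above all controls and the adjusted p was 0.00474, but the log2 fold change of 0.74 ± 0.16 (SE) was under the fold limit. Tab1 (chr15:80133127-80161707), a partner of the kinase TAK1, had the highest adaptor level per length in both groups. This ranking depends on the gene lengths in the table, since mean CPM was higher for Traf6. Traf6 averaged 61.94 CPM against 37.45 for Tab1 in controls, and 65.26 against 34.55 after cisplatin. The Tab1 controls were at 31.9, 32.2, 34.7 and 51.0 CPM and its cisplatin libraries at 36.5, 31.7, 41.1 and 28.9 CPM. The groups overlapped, with cisplatin 3 and 6 below the lowest control (log2 fold change -0.12 ± 0.20, SE, adjusted p = 0.661). Traf5 and Traf6, an adaptor of several TNF receptors and one shared with Toll-like receptors, had log2 fold changes of 0.19 and 0.07 with adjusted p values of 0.532 and 0.757. Traf5 averaged 20.9 CPM in cisplatin 1 and 3 and 12.7 CPM in cisplatin 4 and 6, against 14.8 CPM in controls.

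Of the 2 kinases, Ripk4 rose and Ripk1 did not pass the test. Ripk4 (chr16:97741933-97763737), a kinase of epithelial differentiation, was at 33.8, 36.0, 34.5 and 40.7 CPM in controls and at 78.6, 65.9, 113.3 and 108.1 CPM after cisplatin. The groups did not overlap, and cisplatin 4 and 6 were the highest. Its log2 fold change was 1.33 ± 0.19 (SE, adjusted p = 0.000423), and in the first library set it was 0.997, just under the limit. Ripk1 (chr13:34002363-34037147), the kinase at the branch between NF-κB activation and cell death, was at 66.5, 62.9, 67.3 and 57.4 CPM in controls and at 59.3, 54.3, 38.9 and 44.7 CPM after cisplatin. Only cisplatin 1 exceeded the lowest control, and the log2 fold change of -0.36 ± 0.16 (SE) had an adjusted p of 0.0902. With DESeq2 the log2 fold change was -0.40 (adjusted p = 0.0387), and against cisplatin 4 and 6 it was -0.60 (edgeR, adjusted p = 0.00914). Both were under the fold limit. With scaling by total library size the log2 fold change was 0.21 (edgeR, adjusted p = 0.369). Ripk1 overlaps Serpinb6a on the opposite strand.

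The NF-κB subunits with usable rows were higher in every cisplatin library than in any control. Relb (chr7:19606217-19629438), the transactivating subunit of the non-canonical route, was at 7.17, 8.46, 8.49 and 12.5 CPM in controls and at 50.9, 51.3, 59.3 and 51.4 CPM after cisplatin. Control 5 was the highest control and cisplatin 4 the highest library. Relb rose by a log2 fold change of 2.54 ± 0.20 (SE, adjusted p = 1.31e-05).

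Nfkb2 (chr19:46304737-46312090), whose product p100 is both an inhibitor and the precursor of the RelB partner, was at 31.4, 27.5, 32.3 and 40.6 CPM in controls. After cisplatin it was at 127.7, 154.1, 159.4 and 139.6 CPM. The 4 cisplatin libraries lay close together and well above the controls, with a log2 fold change of 2.14 ± 0.16 (SE, adjusted p = 1.05e-05). Per length it was the most abundant of the 3 subunits in both groups, at 10.02 ± 1.67 and 44.2 ± 4.37 CPM per kb (SD, n = 4). In controls this ranking depends on the gene lengths in the table, since mean CPM was 33.0 for Nfkb2 and 58.8 for Nfkb1. Nfkb2 overlaps Psd on the opposite strand. Its promoter stretch is among those printed above.

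Nfkb1 (chr3:135584655-135691547), the precursor of the canonical p50 subunit, was at 59.2, 66.7, 54.1 and 55.3 CPM in controls and at 109.4, 127.4, 68.1 and 78.0 CPM after cisplatin. The groups did not overlap, but cisplatin 4 lay close to the highest control. The log2 fold change of 0.70 ± 0.21 (SE, adjusted p = 0.0185) was under the fold limit. It was 0.92 in the first library set (adjusted p = 0.000719) and 0.32 against cisplatin 4 and 6 (adjusted p = 0.102). Nfkb2 and Relb were also higher relative to Nfkb1 in every cisplatin library: per length, Nfkb2 over Nfkb1 was 1.51 to 2.69 in controls and 4.28 to 8.59 after cisplatin, and Relb over Nfkb1 was 0.376 to 0.702 and 1.25 to 2.70. Both ratios separated the groups and were highest in cisplatin 4 and 6, as the plot of ratios shows.

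**Figure D4:**
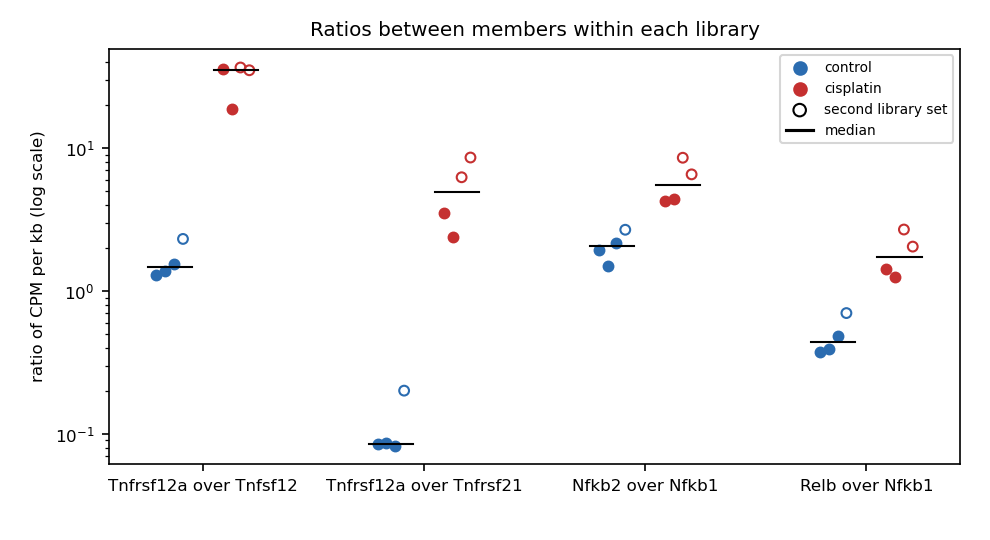
Ratios of CPM per kb between pairs of members within each library (log scale); blue points are controls, red points cisplatin libraries, open points the second library set and bars the group medians. In each of the 4 pairs plotted, all cisplatin libraries lie above all controls. Medians are 35.6 against 1.46 for Tnfrsf12a over Tnfsf12 and 5.50 against 2.07 for Nfkb2 over Nfkb1. Tnfrsf25 over Tnfsf15 and Tnfrsf13b over Tnfsf13 overlapped between the groups and are not plotted.

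Of the 3 inhibitors of NF-κB signalling, 2 rose and 0 fell. Tnfaip3 (chr10:19000910-19015657) encodes the ubiquitin-editing enzyme known as A20, a feedback inhibitor of TNF receptor complexes. Its controls were within a narrow range, at 12.5, 13.1, 12.9 and 13.2 CPM, and its cisplatin libraries were at 61.9, 70.4, 60.8 and 52.7 CPM. The spread within each group was small beside the gap, and the log2 fold change was 2.25 ± 0.15 (SE, adjusted p = 4.51e-06). Nfkbid (chr7:30421732-30428746), an atypical nuclear IκB protein, was at 1.95, 1.52, 2.28 and 2.75 CPM in controls and at 6.37, 5.66, 7.03 and 6.50 CPM after cisplatin. It rose without overlap by a log2 fold change of 1.58 ± 0.27 (SE, adjusted p = 0.00100).

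Nfkbib (chr7:28758251-28767512), the cytoplasmic inhibitor IκB beta, had the highest level per length of these inhibitors in both groups. The controls were at 32.1, 33.4, 38.3 and 54.1 CPM and the cisplatin libraries at 42.3, 47.4, 94.6 and 84.1 CPM. Cisplatin 1 and 3 lay within the control range and cisplatin 4 and 6 above it. The log2 fold change was 0.76 ± 0.29 (SE, adjusted p = 0.0526), and against cisplatin 4 and 6 it was 1.19 (adjusted p = 0.00202). Nfkbib overlaps Sirt2 and Ccer2 on the opposite strand.

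Of the 3 genes named as TNF-induced proteins, Tnfaip8l1 rose. Tnfaip8l1 (chr17:56162477-56173955), a lipid-binding relative of a TNF-induced death regulator, was at 1.86, 1.28, 1.59 and 1.65 CPM in controls and at 6.50, 3.74, 9.59 and 11.5 CPM after cisplatin. All cisplatin libraries were above all controls, cisplatin 4 and 6 the most (log2 fold change 2.29 ± 0.38, SE, adjusted p = 0.000898). Tnfaip2 (chr12:111442469-111455018), a gene of vesicle and membrane protrusion biology, was at 62.2, 73.0, 76.7 and 112.8 CPM in controls and at 123.7, 125.4, 108.4 and 157.5 CPM after cisplatin. Control 5 exceeded cisplatin 4, and the log2 fold change of 0.67 ± 0.21 (SE, adjusted p = 0.0226) was under the fold limit. Tnfaip8l2, a negative regulator of immune cell activation, had a log2 fold change of 0.81 (adjusted p = 0.0301), also under the limit, without overlap between the groups.

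Birc5 and Birc6 moved in opposite directions. Birc5 (chr11:117849251-117855743) encodes survivin, which serves in mitosis. It was at 3.28, 2.31, 2.73 and 2.20 CPM in controls and at 4.73, 4.40, 4.98 and 12.2 CPM after cisplatin. The groups did not overlap, but cisplatin 6 stood far above the other cisplatin libraries. The log2 fold change was 1.32 ± 0.39 (SE, adjusted p = 0.0180), 0.84 without cisplatin 6 and 0.66 in the first library set (adjusted p = 0.0636), and without control 2 the adjusted p was 0.0512. The proliferation markers Cdk1, Aurkb and Ccnb1 summed to 2.95 to 8.41 CPM in controls and to 7.96 to 35.1 CPM after cisplatin, 2 of the 3 being higher, and in cisplatin 6 alone they were at 13.1, 11.3 and 10.6 CPM. Their part in the Birc5 value was not tested.

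Birc6 (chr17:74528295-74703356), a very large ubiquitin ligase that restrains caspases, was the only member called lower. It was at 293.5, 287.3, 278.9 and 204.1 CPM in controls and at 143.2, 152.7, 72.2 and 67.3 CPM after cisplatin. The groups did not overlap, and within each group the second library set was the lower. The log2 fold change was -1.29 ± 0.29 (SE, adjusted p = 0.00498), -1.01 in the first library set and -1.93 against cisplatin 4 and 6. With scaling by total library size it was -0.70 and not called (adjusted p = 0.0830). Birc7 had 1 count in cisplatin 6 and 0 in the other libraries and was not tested. Ikbkap (chr4:56749680-56802331), which despite its name encodes a subunit of the Elongator complex and not a part of the IκB kinase, was at 30.2, 33.7, 32.5 and 36.4 CPM in controls and at 46.3, 41.2, 36.8 and 32.8 CPM after cisplatin, with overlap (log2 fold change 0.24 ± 0.16, SE, adjusted p = 0.225).

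The cisplatin libraries also differed among themselves. The mean CPM of cisplatin 1 and 3 and that of cisplatin 4 and 6 were more than 1.5 times apart for 13 of the 32 tested members. The share over all genes tested was not computed. The second principal component also set these pairs apart, so the count cannot be read as particular to the members. Higher in cisplatin 4 and 6 were 8, among them Tnfrsf12a (606.6 against 340.7 CPM), Tnfrsf4, Tnfaip8l1, Nfkbib, Ripk4 and Birc5. Higher in cisplatin 1 and 3 were 5: Nfkb1, Traf5, Tnfsf15, Tnfrsf13b and Birc6. Relb, Nfkb2, Tnfaip3, Nfkbid and Tnfrsf18 were within this limit. The pairs differ both in library set and in Y-linked counts, which cannot be told apart here.

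Other genes of the pathway were read from a list of 57 that holds no member. Of these, 32 had usable rows and 31 were tested, 10 rose (32.3%, against 19.2% of all genes tested) and 2 fell (6.45%, against 15.7%), and the median log2 fold change was 0.36. The largest rise was in Eda2r, a TNF receptor family gene known as a p53 target, which was at 0.638 to 1.52 CPM in controls and at 56.3 to 98.2 CPM after cisplatin (log2 fold change 5.98 ± 0.31, SE, adjusted p = 1.40e-06). Next came Rhbdf2, which brings the TNF-shedding protease to the cell surface (log2 fold change 2.31), the receptor Relt (2.26), the adaptor Edaradd (2.01) and Zc3h12a, an RNase that degrades inflammatory transcripts (1.87). Map3k14, the NF-κB inducing kinase that starts Nfkb2 processing, rose from 21.1 to 30.1 CPM in controls to 57.0 to 70.1 CPM (log2 fold change 1.26 ± 0.16, SE, adjusted p = 0.000171). The death receptor gene Fas was at 12.3 to 14.5 CPM in controls and at 28.9 to 34.3 CPM after cisplatin (log2 fold change 1.24).

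Bcl10 and Card14, whose products act with the protease Malt1 in a complex upstream of NF-κB, rose by log2 fold changes of 1.48 and 1.47, while Malt1 fell by 1.04 on the log2 scale. Malt1 was no longer called without control 3 (-0.90), without cisplatin 6 (-0.95) or with upper quartile or total library size scaling (-0.99 and -0.48). Usp18, a protease of the interferon response, rose by 1.27 on the log2 scale, a call that was lost without control 2, cisplatin 1 or cisplatin 3 (adjusted p = 0.0521 to 0.0674) and against cisplatin 4 and 6 alone (0.88). Cd27, a lymphocyte receptor, fell by 1.69 with overlapping groups, and was not called without control 2, control 3, cisplatin 1 or cisplatin 6 (adjusted p = 0.0513 to 0.0722) or with total library size scaling (-1.14, adjusted p = 0.0842). The T and NK cell marker sums given above were lower over the same libraries, and their part in the Cd27 value was not tested.

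Genes known as NF-κB targets were read from a second list of 60, of which 33 had usable rows and 32 were tested. Higher were 16 (50%, against 19.2% of all genes tested) and lower 5 (15.6%, near the 15.7% of all genes tested). The median log2 fold change was 1.06. A gene could pass the filter through the cisplatin group alone, as Ccl20, Csf3 and Cxcl5 did. With at least 10 counts in every library, 19 targets were tested, 6 being higher and 3 lower. In that fit 14.7% of all genes were higher and 14.2% lower. Lcn2, the kidney injury marker lipocalin, was at 2.13 to 4.40 CPM in controls and at 1292 to 2661 CPM after cisplatin (log2 fold change 9.23 ± 0.41, SE, adjusted p = 8.94e-07). Lif, a cytokine of the interleukin 6 family, was at 0.620 to 0.957 CPM and at 95.2 to 184.9 CPM. Among the chemokines, Cxcl1 was at 0.708 to 8.70 CPM in controls and at 52.4 to 127.2 CPM after cisplatin. The complement gene C3 and the endothelin gene Edn1 rose by log2 fold changes of 3.91 and 3.51, and Mmp3 and Cd80 by 3.41 and 3.20.

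A further 3 target genes were at or under 3 counts in every control. Against that floor (0.266 CPM, the highest over the controls), Ccl20 was at least 16.1-fold higher after cisplatin, Csf3 at least 13.6-fold and Cxcl5 at least 6.20-fold. With these genes at their bounds the median of the list was again 1.06. In the other direction, Nos2 fell by 3.68 on the log2 scale, Cxcl9 by 3.41, the mitochondrial superoxide dismutase Sod2 by 1.74, Il15 by 1.59 and Cd83 by 1.34. With total library size scaling Cd83 was at -0.78 and not called. Sod2 was at 445.0 to 538.6 CPM in controls and at 109.8 to 182.9 CPM after cisplatin, without overlap. The neutrophil marker sums given above were higher over the same libraries, and their part in the chemokine and Lcn2 values was not tested.

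**Figure D5:**
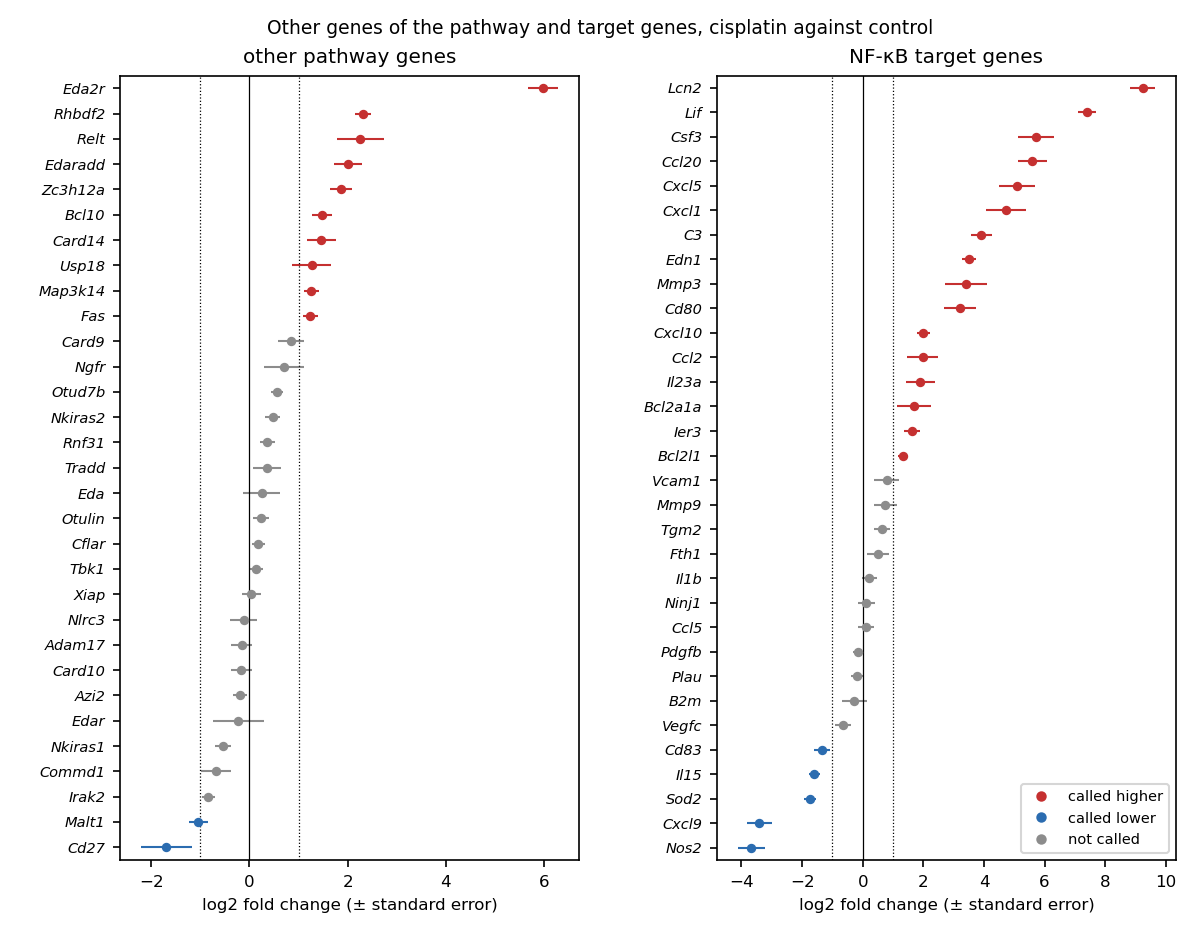
Log2 fold change, cisplatin against control, with its standard error (edgeR) for the 31 tested genes of the other pathway list (left) and the 32 of the NF-κB target list (right); dotted lines mark a log2 fold change of 1 in either direction, red genes were called higher, blue lower and grey not called. The pathway list has 10 red and 2 blue genes with Eda2r at 5.98, and the target list 16 red and 5 blue genes with Lcn2 at 9.23; Ccl20, Csf3 and Cxcl5 were at or under 3 counts in the controls, and their plotted values depend on the fit's prior count.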

How the data were processed

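RNA-seq of whole kidney was analysed in 4 control and 4 cisplatin libraries. The authors deposited raw counts per gene, made from reads trimmed with fastp and aligned to GRCm38 with HISAT2, per the labels' processing notes. The counting tool, annotation release and strand setting are not given in the sources used here, so reads of overlapping genes on opposite strands may not have been told apart. The labels and the study's methods name different library kits. Of 53715 rows, 17835 (33.2%) held 10 values under a header that names 8 libraries. They were left out, and the 2 unnamed columns of values entered no computation. The totals therefore cover part of each library, and 3 counts, taken as the floor, came to 0.136 to 0.266 TMM-normalized CPM, which covers counting error only.

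Counts were tested over all genes in R 4.3.3 with edgeR 4.0.16 (default expression filter, TMM, quasi-likelihood test, Benjamini-Hochberg adjustment). CPM values are TMM-normalized, and CPM per kb divides them by the gene length in the table, which may not be the length of the transcripts made. The SE of a log2 fold change is its size over the root of the F statistic. Coordinates are those of the deposited table. The procedure was tested on simulated data. Replicate libraries differed by more than sampling noise, with a chi-square per gene of at least 15.3 within groups.

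The members, their roles and the gene lists were chosen with earlier results of these data known. Values in every library are given for called members, for the member of each role with the highest level per length in either group and for a list of core pathway genes (such as Traf2, Ripk1 and Nfkb1), and at most 10 called genes per direction for the other lists. Tnfsf8 values and the remarks on differences among cisplatin libraries were added after the values were seen. The study's thresholds were used. A gene of the pathway list is not reported here and was left out of its counts. Alternatives were DESeq2 1.42.0, other normalizations and filters, no fold limit, a glmTreat test for changes beyond 1 on the log2 scale, a fit leaving out mitochondrially encoded genes and the top 10 genes by abundance, a replicate block, the library set as a covariate or the first set alone, and each library left out. The fit of the 4 controls against cisplatin 4 and 6 was chosen after seeing the data. The library sets were read from the principal components of these same counts. Fits that use them are therefore not independent checks.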

Additional observations from a re-analysis of the deposited data

Results flagged for a closer look

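In 7 of the 64 groups of 4 libraries (32 members in each condition), 1 library stood apart from the other 3, its gap to the nearest of them, as a share of the group's whole range, being above Dixon's 95% critical value. For independent normal values, chance alone gives about 1 such group in 20. The 64 groups come from the same 8 libraries and are not independent, and the share over all genes was not computed. The count of 7 can therefore not be set against that rate. In 4 of the 7 the library standing apart was control 5. Tab1 was at 51.0 CPM in control 5 and at 31.9 to 34.7 CPM in the other controls, and Traf2 at 32.2 CPM against 23.0 to 23.9. In the same library Birc6 was at 204.1 CPM against 278.9 to 293.5, and Tnfrsf23 at 2.04 CPM against 3.01 to 3.03. Birc5 was at 12.2 CPM in cisplatin 6 and at 4.40 to 4.98 CPM in the other cisplatin libraries. Tnfsf13 was at 1.91 CPM in cisplatin 1 and at 4.83 to 4.92 CPM in the others, and Relb at 59.3 CPM in cisplatin 4 and 50.9 to 51.4 CPM in the others.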

How the results depend on the processing

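Every one of the 14 members called higher was also called under DESeq2, DESeq2's size factors, upper quartile scaling, no filter, the library set as a covariate and removal of abundant genes. Leaving out 1 library at a time gave 12 to 14 members higher and 1 to 2 lower (2 without control 2, cisplatin 3 or cisplatin 6), 9 to 11 other pathway genes higher and 0 to 2 lower (1 without control 2 or cisplatin 1, 0 without control 3 or cisplatin 6), and 15 to 18 target genes higher and 5 lower. Over all genes, the fits without 1 library called 16.9% to 20.1% higher and 14.7% to 16.6% lower. Scaling by total library size gave 0 members and 0 other pathway genes lower, where 8.78% of all genes were. Upper quartile scaling gave 1 other pathway gene lower, where 14.7% of all genes were. With no fold limit, 2 members and 4 other pathway genes were lower, where 22.6% of all genes were. A glmTreat test for changes beyond 1 on the log2 scale gave 9 members higher and 0 lower, where 9.68% and 8.78% of all genes were, and 6 and 0 other pathway genes. At least 10 counts in every library left 1 other pathway gene lower and 6 target genes higher and 3 lower, of 19 target genes tested. In that fit 14.7% of all genes were higher and 14.2% lower. The library set as a covariate left 1 other pathway gene lower, where 16.6% of all genes were. Members lower were 2 with the library set as a covariate, 2 in the first set alone (with Tnfrsf25 added in both) and 4 against cisplatin 4 and 6 only (with Tnfrsf21, Tnfrsf13b and Tnfsf15 added). Of all genes 16.6%, 16.3% and 20.5% were lower in these fits, in that order. The cause of these changes was not tested.

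Sign reversals touched only members that were not called. With total library size the log2 fold changes were 0.21 for Ripk1, 0.46 for Tab1, 0.13 for Tnfrsf26 and 0.49 for Tnfsf15. With the library set as a covariate Tnfsfm13 was at -0.021. In the first set Tnfsf15 was at 0.39, Tnfsfm13 at -0.36 and Traf6 at -0.26, and against cisplatin 4 and 6 Traf5 was at -0.21. Leaving out 1 library at a time, Tab1 ranged from -0.21 to 0.057 (without control 5), Traf6 from -0.053 (without control 5) to 0.15 and Tnfsf15 from -0.57 to 0.13 (without cisplatin 6).

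The numbers 1 and 3 occur in both groups, and the labels do not say whether they pair animals. Deviations of libraries with the same number correlated at 0.24 and 0.26, and those of different numbers within the first set at 0.14 to 0.35. So few pairs cannot decide whether the numbers pair animals. With the library number as a replicate block, the cisplatin effect comes only from libraries 1 and 3 of each group. The other libraries have a number of their own and add nothing to it. Cisplatin 1 and 3 are also the libraries with almost no Y-linked counts. In this fit the drug and that difference cannot be told apart. That fit gave 14 members higher and 1 lower, where 18.7% and 15.4% of all genes were. Birc5 (0.61, adjusted p = 0.138 by edgeR) and Birc6 (-0.95) were no longer called, and Nfkb1 (1.06) and Tnfrsf25 (-1.16) were. Tab1 was at 0.031, Tnfsf15 at 0.25, Tnfsfm13 at -0.56 and Traf6 at -0.15. At these depths members with a few counts, such as Tnfsf4, Tnfsf11 and Birc7, could not be compared.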
